A study of Homo sapiens with 12 samples.

Results

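The gene set described here is the Wnt ligands, receptors and modulators, chosen by symbol from the table of counts. It holds every row named as a WNT ligand, a Frizzled receptor (*FZD*), a secreted Frizzled-related protein (*SFRP*), a Dickkopf (*DKK*), an R-spondin (*RSPO*), a Dishevelled (*DVL*), *LRP5* or *LRP6*, *LGR4* to *LGR6*, or *NKD1* or *NKD2*. *AXIN1*, *AXIN2*, *CTNNB1*, *LEF1*, *TCF7*, *TCF7L1*, *TCF7L2*, *RNF43* and *ZNRF3* complete it. These are 60 of the 26485 genes in the table. The cells were HEK293, a human line from embryonic kidney with wild-type genotype in all groups, and poly(A) RNA was sequenced. Cells of 3 passages were transfected with PEG10 gag-pol, PEG10 gag, PEG10 nucleocapsid (NC) or, as control, LifeAct-Dendra2, an actin-binding peptide joined to a fluorescent protein. Each of the 4 groups had 3 libraries, which makes 12. Each well received 1 µg of plasmid and cells were collected after 48 hr. PEG10 is a protein derived from a retrotransposon. Its gag-pol form is made by a frameshift, its gag form is made without that frameshift, and NC is the end piece of gag. The share of cells that took up a plasmid was not measured in these libraries, so fewer responding cells and a smaller response per cell cannot be told apart.

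Wnt ligands are secreted lipid-modified proteins that bind a Frizzled receptor and, in the β-catenin branch, the co-receptors LRP5 and LRP6. Dishevelled then disables the complex of Axin, APC and kinases that marks β-catenin (*CTNNB1*) for destruction, and β-catenin acts with TCF and LEF factors on DNA. Secreted Frizzled-related proteins and Dickkopfs hold the pathway back outside the cell, the ubiquitin ligases ZNRF3 and RNF43 remove Frizzled receptors from the surface, and R-spondins with their LGR receptors counter these ligases.

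Library totals ran from 30625725 to 45316749 counts, and TMM scaling factors from 0.94 to 1.06. The share of counts taken by *PEG10*, the transfected gene, was 0.0230% to 0.0346% in control libraries. It was 2.80% to 7.35% in those of gag-pol, 3.78% to 6.10% in those of gag and 0.238% to 0.389% in those of NC, as the labels have it. The inserts differ in length and that of NC is the shortest, so these shares do not compare transcript numbers between constructs. The Wnt genes together took 0.192% to 0.232%. All 6 markers of HEK293 cells (*KRT8*, *KRT18*, *VIM*, *PAX2*, *NEFM* and *NEFL*) were detected in every library, with a summed count of 30157 to 56683. Markers of other cell types (*PTPRC*, *CD3E*, *HBB*, *ALB* and *PECAM1*) had a summed count of 14 to 69, and *PTPRC*, *CD3E* and *HBB* never passed 7. *ALB* had 6 to 50 counts and *PECAM1* 1 to 30, while *NEFM*, the lowest of the HEK293 markers, had 41 to 119.

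The pathway was present from receptor to transcription factor in control cells. Of the 60 genes, 58 passed the filter on low counts. *FZD10*, a receptor, had at most 4 counts in any library and *DKK4*, an antagonist, 0 to 4, and neither was tested. Levels between genes are given as CPM per kb, that is, counts scaled to library size (CPM) and divided by annotated exon length, a scale on which the median tested gene stood at 4.31 in control libraries. On that scale 28 members lay above the median, 40 were above 1 and 6 were under 0.1. Lengths were known for 90.4% of the tested genes.

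**Figure D1:**
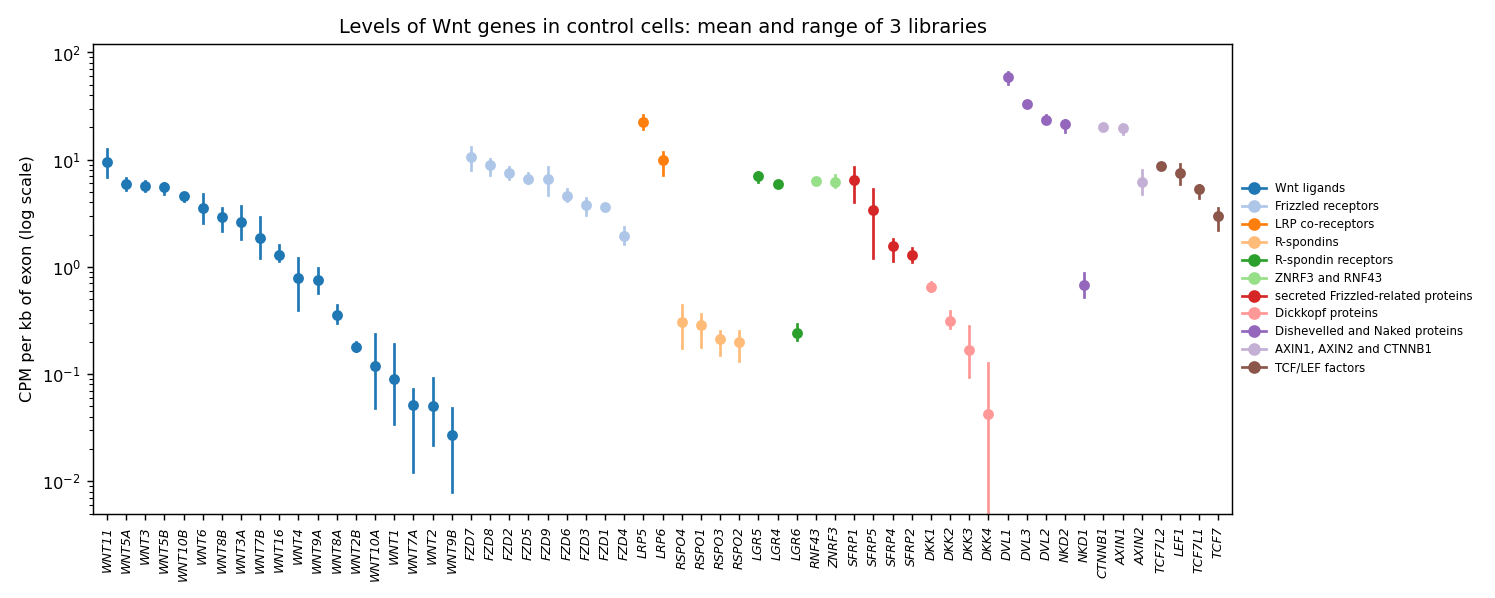
Level of each Wnt gene in the 3 control libraries, in CPM per kb of exon on a log axis; dots are means, bars run from the lowest to the highest library, and colours mark families. *DVL1* is highest at 58.6, and the R-spondins lie between 0.199 and 0.303. The bar of *DKK4* is cut at the axis because its lowest library had no count, and *FZD10* is left out because all control libraries had no count.

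By mean level the Dishevelled genes stood highest. *DVL1*, which carries the signal from the receptor, was at 58.6 ± 7.79 CPM per kb (SD, n = 3) and *DVL3* at 33.3 ± 1.71, and their ranges did not overlap. *DVL2*, *LRP5*, *NKD2*, *CTNNB1* and *AXIN1* came next, and each range overlapped that of the next gene in this order. *LRP5* was at 22.4 ± 3.26. *CTNNB1* was highest of its group at 20.1 ± 1.06. Among the Frizzled receptors *FZD7* was highest at 10.5 ± 2.58, with a range that overlapped that of *FZD8* at 8.85 ± 1.48. *WNT11*, a ligand known mainly for signalling without β-catenin, was the most abundant ligand at 9.51 ± 2.82. *TCF7L2* was highest of the TCF and LEF genes at 8.78 ± 0.28, *LGR5* of the R-spondin receptors at 7.05 ± 0.823, and *SFRP1* of the secreted Frizzled-related genes at 6.45 ± 2.31. *RNF43* was at 6.32 ± 0.42, although 68.35% of its exon length is shared with another gene on the same strand, so its reads are uncertain. *DKK1* at 0.645 ± 0.0669 and *RSPO4* at 0.303 ± 0.133 led the Dickkopf and R-spondin families, whose members were all below the median gene. The ranges of *TCF7L2* and *LEF1*, of *LGR5* and *LGR4*, and of *SFRP1* and *SFRP5* overlapped. So did those of *RNF43* and *ZNRF3* and of *RSPO4* and *RSPO1*.

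Each PEG10 construct was set against control, and the Wnt genes that passed the test with gag-pol or NC all rose. With gag-pol 11 of the 58 tested genes rose (5.48% of all 17176 genes tested rose) and 0 fell (5.83% of all genes fell). With NC 7 rose (6.04% of all genes) and 0 fell (5.15%). With gag 0 passed (1.08% of all genes, either direction), 10 had an unadjusted p under 0.05 (13.7% of all genes), and DESeq2 also called 0. The test was the quasi-likelihood test of edgeR, adjusted by Benjamini-Hochberg over all genes, and the model held the replicate number. Wnt genes had a median log2 fold change of 0.13 for gag-pol, 0.09 for NC and 0.02 for gag, against -0.0014, 0.0040 and 0.0027 for all tested genes. These comparisons share the control libraries, so their values are given side by side and not counted as separate evidence. *WNT3A*, *WNT4*, *WNT7B*, *SFRP5* and *TCF7* passed with both gag-pol and NC. DESeq2 kept the edgeR calls of both constructs. With gag-pol it added *FZD1* (0.32) and *WNT11* (0.31) as rises and *WNT6* (-0.53), *SFRP4* (-0.54) and *DVL2* (-0.20) as falls. With NC it added *LRP5* (0.21) and *NKD2* (0.22) as rises and *DVL2* (-0.21) as a fall. The shares of all genes given above are those of edgeR and do not apply to the added calls. These added calls are named after their values were seen.

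**Figure D2:**
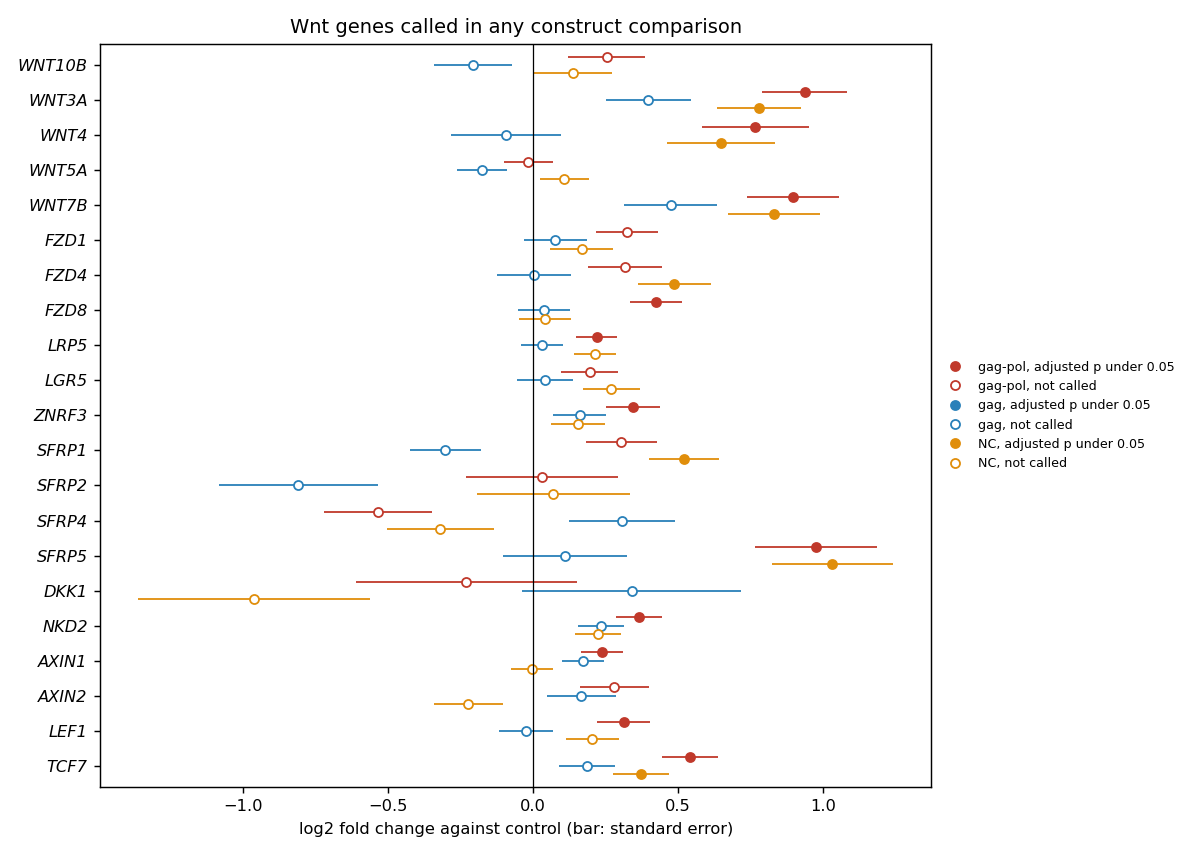
Log2 fold change against control of the 21 Wnt genes called in any construct comparison, for gag-pol (red), gag (blue) and NC (orange); bars are standard errors, and filled dots have an adjusted p under 0.05. The largest called rises are those of *SFRP5* with NC (1.03) and with gag-pol (0.97), and no gag dot is filled.

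Unless another tool or setting is named, calls are those of edgeR with all 12 libraries. All of them rest on the replicate number being in the model. Without it edgeR called 0 Wnt genes in each construct comparison, where it called 2 of all 17176 genes (0.0116%) with gag-pol and as many with NC, and the adjusted p-values of the 52 calls made across the construct comparisons ran from 0.287 to 0.805. With gag-pol against control the number of Wnt genes called dropped from 11 to 7 without control replicate 3 and to 6 without gag-pol replicate 1. With NC it dropped from 7 to 3 without control replicate 3 and likewise to 3 without NC replicate 3. The share of all genes called in these leave-out fits is not given, so a drop particular to the Wnt genes cannot be read from them. For the genes described below, lost calls are named for single libraries left out. Leaving out a whole replicate number lost 33 of the 52 calls for number 1, 16 for number 2 and 25 for number 3.

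Promoters are shown for 4 of the 5 genes that rose with both gag-pol and NC, because these genes moved together, and *WNT7B* had no matched window. Sequences are the 250 bases before the RefSeq start on GRCh38.p14, written 5′ to 3′ on the gene's strand, and 42 members matched such a window, with 51 windows in all. Capitals mark 2 kinds of motif, the GC box GGGCGG, to which SP factors bind, and the TCF and LEF core CTTTGT, each searched on both strands, so that CCGCCC and ACAAAG are the same motifs reversed. The A form of the core, CTTTGA, was searched too. The *WNT3A* window is chr1:228006748-228006997 (forward), *WNT4* chr1:22143098-22143347 (reverse), *SFRP5* chr10:97772000-97772249 (reverse), and *TCF7* chr5:134123368-134123617 (forward), which precedes the downstream of its RefSeq starts.
WNT3A: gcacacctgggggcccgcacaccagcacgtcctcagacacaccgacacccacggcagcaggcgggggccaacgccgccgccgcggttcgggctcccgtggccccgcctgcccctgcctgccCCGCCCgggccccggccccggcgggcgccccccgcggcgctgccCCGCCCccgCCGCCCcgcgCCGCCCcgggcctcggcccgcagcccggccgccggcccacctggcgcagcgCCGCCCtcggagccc
WNT4: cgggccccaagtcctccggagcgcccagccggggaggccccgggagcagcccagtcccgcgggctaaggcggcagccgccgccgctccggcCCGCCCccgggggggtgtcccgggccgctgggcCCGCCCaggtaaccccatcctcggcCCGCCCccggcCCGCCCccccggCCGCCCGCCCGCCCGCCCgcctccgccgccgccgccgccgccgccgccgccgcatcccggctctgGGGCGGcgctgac
SFRP5: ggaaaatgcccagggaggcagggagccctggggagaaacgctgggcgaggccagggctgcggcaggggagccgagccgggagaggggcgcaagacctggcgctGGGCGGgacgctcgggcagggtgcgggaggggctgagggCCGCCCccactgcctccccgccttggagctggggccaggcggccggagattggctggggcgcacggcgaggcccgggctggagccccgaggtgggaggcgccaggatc
TCF7: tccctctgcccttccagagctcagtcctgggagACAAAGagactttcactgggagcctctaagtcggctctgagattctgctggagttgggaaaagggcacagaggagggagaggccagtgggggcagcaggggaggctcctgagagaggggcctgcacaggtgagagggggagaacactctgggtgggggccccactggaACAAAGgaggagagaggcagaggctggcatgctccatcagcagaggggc
The *WNT3A* window is 86.0% G or C and holds 5 GC boxes. That of *WNT4* is 86.8% G or C and holds 9 GC boxes, some of them overlapping. *SFRP5* has 2 GC boxes, and the *TCF7* window shown has 0 GC boxes and 2 copies of CTTTGT read on the other strand. The upstream *TCF7* window, chr5:134115363-134115612, is 70.8% G or C and holds 1 GC box and 0 copies of CTTTGT. Over all members 36 of 51 windows held a GC box (70.6%), against 42.6% of all 35116 windows. CTTTGT occurred in 7 member windows (13.7%), as in 13.7% of all windows, and CTTTGA in 1, that of *DKK1* (1.96%), against 11.2%. A match is only a run of letters and was not tested for binding.

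Of the 19 ligand genes, 3 rose with gag-pol and the same 3 with NC, and none fell. *WNT3A*, a ligand of the β-catenin branch, lies on the forward strand of chromosome 1 from 228006998 to 228061271 (ENSG00000154342.6, GENCODE release 44). Normalized counts, which are counts scaled to the mean library, were 254, 421 and 204 in replicates 1, 2 and 3 of control and 485, 636 and 507 with gag-pol. They were 344, 478 and 314 with gag and 376, 690.2 and 434 with NC. All gag-pol values lay above the highest control value, whereas control replicate 2 exceeded NC replicate 1. On the log2 scale the change was 0.94 with gag-pol (standard error 0.14, a 1.91-fold rise, edgeR adjusted p = 0.000421). With NC it was 0.78 ± 0.15 (adjusted p = 0.0026), and with gag 0.40 ± 0.15 (adjusted p = 0.211). Gag-pol exceeded gag by 0.54 ± 0.14 (adjusted p = 0.0265), a call lost without gag-pol replicate 1 or 3 or gag replicate 1, 2 or 3 (adjusted p from 0.0865 to 0.2). Both calls against control held in all 15 fits run without a library or without a replicate number.

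*WNT7B*, another ligand that can signal through β-catenin, lies on the reverse strand of chromosome 22 from 45920366 to 45977162. Its normalized counts were 269.9, 559.9 and 230.1 in control and 556, 689 and 604 with gag-pol. With gag they were 416, 655 and 363, and with NC 443, 841 and 552. Each replicate was higher than its control with all PEG10 constructs, and replicate 2 was highest throughout, so the NC and control ranges overlapped. In log2 units it changed by 0.89 ± 0.16 with gag-pol (adjusted p = 0.00142) and 0.83 ± 0.16 with NC (adjusted p = 0.00315), and both held in all 15 leave-out fits. With gag it was 0.47 ± 0.16 (adjusted p = 0.161). Gag-pol and gag differed by 0.42 (95% interval 0.10 to 0.74), which did not pass.

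*WNT4*, a ligand needed for kidney tubule formation, lies on the reverse strand of chromosome 1 from 22117313 to 22143969. Its normalized counts were 68.5, 212 and 128 in control and 72.5, 175 and 126 with gag. They were 129.9, 306 and 239 with gag-pol and 131, 283 and 202 with NC. The groups overlapped because replicate 1 was low and replicate 2 high under every construct, and within each replicate gag-pol and NC stood above control and gag. The log2 fold change against control was 0.77 ± 0.18 with gag-pol (adjusted p = 0.00954) and 0.65 ± 0.19 with NC (adjusted p = 0.0273). Against gag it was 0.86 ± 0.19 with gag-pol (adjusted p = 0.00917) and 0.74 ± 0.19 with NC (adjusted p = 0.00974). The gag-pol call against control was lost without control replicate 3 or gag-pol replicate 3 (adjusted p from 0.0528 to 0.058), and that of NC without control replicate 1 or 3 or NC replicate 1 or 3 (adjusted p from 0.0656 to 0.127). Against gag the gag-pol call was lost without gag-pol replicate 3 or gag replicate 1 (adjusted p from 0.0586 to 0.0785), and the NC call without NC replicate 1 (adjusted p = 0.055).

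**Figure D3:**
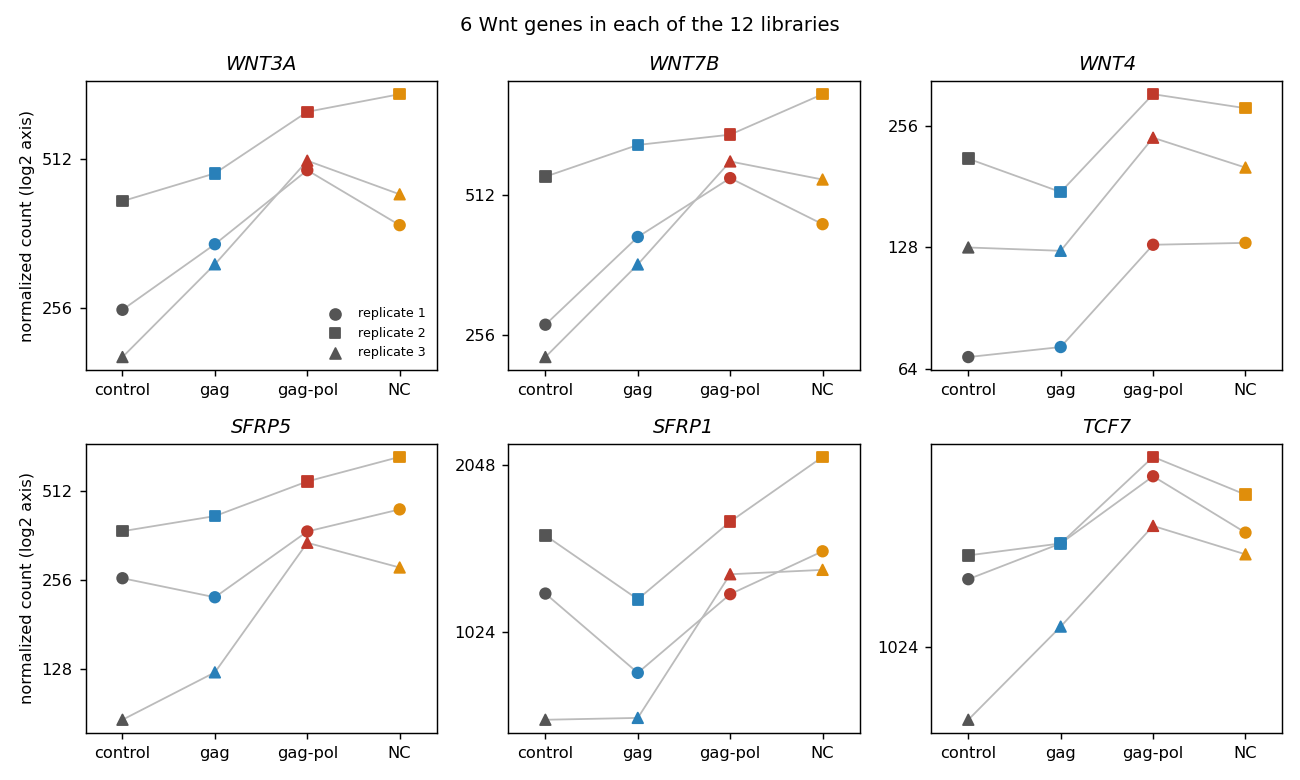
Normalized counts of 6 Wnt genes in each of the 12 libraries on log2 axes; colours are constructs, marker shapes are replicate numbers, and grey lines join libraries of the same number. For *WNT3A* the gag-pol libraries (485 to 636) lie above the control libraries (204 to 421), and for *SFRP5* and *SFRP1* replicate 3 of control and of gag is lowest.

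*WNT10B* and *WNT5A* passed against gag and not against control. *WNT10B*, a ligand of the β-catenin branch, had normalized counts of 404, 382 and 378 with gag and 569, 485 and 547 with gag-pol, which did not overlap. Control libraries held 406, 470.3 and 469 and NC libraries 417, 540.4 and 524. Gag-pol exceeded gag by 0.46 ± 0.13 on the log2 scale (adjusted p = 0.0408), and the call was lost without control replicate 2, gag-pol replicate 1 or 3 or gag replicate 1, 2 or 3 (adjusted p from 0.0537 to 0.202). *WNT5A*, a ligand best known for signalling without β-catenin, had 1199, 1578 and 1442 with gag and 1405, 1851 and 1894 with NC. In control it had 1410, 1815 and 1533, and with gag-pol 1294, 1749 and 1682. NC exceeded gag by 0.29 ± 0.09 (adjusted p = 0.0253), lost without gag replicate 1, 2 or 3 or NC replicate 1 or 3 (adjusted p from 0.056 to 0.115). The other 14 ligand genes passed in no construct comparison in edgeR with all libraries. *WNT11*, the most abundant, stood at 0.31 with gag-pol (95% interval 0.09 to 0.53, adjusted p = 0.0568), and it passed in DESeq2 (adjusted p = 0.0429), with no filter on low counts (adjusted p = 0.0419) and without gag-pol replicate 2, at 0.40 (adjusted p = 0.0407), or NC replicate 2 (adjusted p = 0.0475). *WNT6* was below control with gag-pol in DESeq2 (-0.53, adjusted p = 0.0299), and in edgeR it passed with at least 10 counts in every library (adjusted p = 0.0486) or without NC replicate 2 (adjusted p = 0.0401). *WNT9A* lies 59065 bases from *WNT3A* on chromosome 1 and had a log2 fold change of 0.46 with gag-pol (95% interval -0.04 to 0.96) and 0.20 with NC (95% interval -0.31 to 0.71).

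Among the receptors, *FZD8* and *LRP5* passed as rises with gag-pol and *FZD4* with NC. *FZD8*, a Frizzled receptor on chromosome 10 (35638247 to 35642296, reverse strand), had 1103, 1547 and 1392 normalized counts in control and 1696, 1883 and 1792 with gag-pol. In gag libraries it had 1176, 1492 and 1473, and with NC 1116, 1549 and 1496. The gag-pol libraries stood above all others. The fitted log2 change with gag-pol was 0.42 ± 0.09 against control (adjusted p = 0.00453), lost without gag-pol replicate 1 (adjusted p = 0.0532). Against gag it was 0.38 ± 0.09 (adjusted p = 0.0131), lost without gag-pol replicate 1 or gag replicate 1 or 2 (adjusted p from 0.0652 to 0.107). With NC against control it was 0.04 (95% interval -0.15 to 0.23). Genes on the opposite strand cover 7.85% of its exon length.

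*FZD4*, a receptor for Norrin as well as Wnt ligands, had 450.5, 650.4 and 531 normalized counts in control and 568, 854 and 891 with NC. The gag libraries held 342, 725 and 617, and with gag-pol 494, 755 and 811. Within each replicate NC was highest, while replicate 1 was lowest under every construct and the groups overlapped. On the log2 scale the change with NC was 0.49 ± 0.13 against control (adjusted p = 0.0172), a call lost without control replicate 2 or 3 or NC replicate 1 or 3 (adjusted p from 0.0553 to 0.149). Against gag it was 0.48 ± 0.13 (adjusted p = 0.0122), lost without gag replicate 1 or NC replicate 1 or 3 (adjusted p from 0.0519 to 0.119). *PRSS23* covers 18.94% of the exons of *FZD4* on the opposite strand, and the strand setting of the counting is not given in the sources used here, so its reads are uncertain.

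The co-receptor *LRP5* had 4506, 6009 and 5106 normalized counts in control and 5205, 6513 and 6442 with gag-pol. With NC it had 5434, 6507 and 6111, and with gag 4570, 5912 and 5470. Each gag-pol and NC replicate was above its control, and the groups overlapped. The change in log2 units was 0.22 ± 0.07 with gag-pol (adjusted p = 0.0469) and 0.21 ± 0.07 with NC (adjusted p = 0.0526). The gag-pol call was lost without control replicate 1, 2 or 3, gag-pol replicate 1, 2 or 3, gag replicate 1, 2 or 3 or NC replicate 1 (adjusted p from 0.0539 to 0.206). Its partner *LRP6* was at 0.04 with gag-pol (95% interval -0.13 to 0.21).

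*ZNRF3*, the ligase that removes Frizzled receptors, had 1521, 1878 and 1465 normalized counts in control and 2017, 2142 and 1997 with gag-pol, which did not overlap. Gag libraries had 1723, 2008 and 1703, and with NC 1605, 1809 and 1989. For gag-pol the log2 fold change was 0.34 ± 0.09 (adjusted p = 0.0173), lost without control replicate 3 or gag-pol replicate 1 (adjusted p from 0.0977 to 0.114). Gag-pol and gag differed by 0.18 (95% interval -0.0055 to 0.37), which did not pass. *RNF43*, the related ligase, was at 0.13 with gag-pol against control (95% interval -0.05 to 0.32) and did not pass. None of the 4 R-spondins or the LGR receptors passed in a comparison of single constructs in edgeR with all libraries. With no filter on low counts, or without gag-pol replicate 3, *LGR5* passed with NC against control (adjusted p = 0.0478 and 0.0412), and with at least 10 counts in every library *RSPO3* passed with NC against gag (0.96, adjusted p = 0.0399). *RSPO3* had 14.5, 28.4 and 27.8 normalized counts with gag and 29.2, 54.6 and 61.0 with gag-pol. Its difference from gag of 1.03 with gag-pol (adjusted p = 0.0897) missed the threshold, and it was named after its values were seen.

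The secreted Frizzled-related proteins, antagonists that bind Wnt ligands, held the largest called rise of the set and moved in both directions. *SFRP5* (chromosome 10, 97766751 to 97771999, reverse strand) had 259.5, 374 and 86.0 normalized counts in control and 224, 421 and 124 with gag. The gag-pol libraries held 374, 552 and 342, and with NC 444, 669 and 282. Replicate 3 was lowest under every construct, most so in control and gag, and the groups overlapped. The log2 fold change against control was 0.97 ± 0.21 with gag-pol (adjusted p = 0.00659) and 1.03 ± 0.21 with NC (adjusted p = 0.0058), a 2.04-fold rise. The NC call held in all 15 leave-out fits. The gag-pol call was lost without replicate number 3, at 0.54 (adjusted p = 0.0623), and held in the other 14, although without control replicate 3 the gag-pol value was 0.70 (adjusted p = 0.0357). Against gag it was 0.86 ± 0.21 with gag-pol (adjusted p = 0.0202), lost without gag-pol replicate 3 or gag replicate 1 or 3 (adjusted p from 0.104 to 0.161). With NC against gag it was 0.92 ± 0.21 (adjusted p = 0.00656), lost without gag replicate 1 (adjusted p = 0.0565).

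*SFRP1*, on chromosome 8 from 41261962 to 41309473, was lowest with gag and highest with NC. It had 1202, 1529 and 713 normalized counts in control and 866, 1174 and 718 with gag. In gag-pol libraries it had 1199, 1619 and 1302, and with NC 1432, 2117 and 1326. All NC values lay above all gag values, and control replicate 3 stood apart from the other control libraries at a level near gag replicate 3. NC exceeded gag by 0.82 ± 0.12 (adjusted p = 0.000503), which held in all 15 leave-out fits. NC exceeded control by 0.52 ± 0.12 (adjusted p = 0.0106), lost without control replicate 3 or NC replicate 3 (adjusted p from 0.0575 to 0.0906). Gag-pol exceeded gag by 0.61 ± 0.12 (adjusted p = 0.00763), lost without gag-pol replicate 3 or gag replicate 1 (adjusted p from 0.0594 to 0.0733). Gag against control was at -0.30 ± 0.12 (adjusted p = 0.271), and without control replicate 3 it passed as a fall, at -0.48 (adjusted p = 0.0175).

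*SFRP4* went the other way and was highest with gag. It had 357, 194 and 224 normalized counts with gag and 239, 148 and 228 in control. The gag-pol libraries held 212, 103 and 122, and with NC 246, 112 and 152. Replicate 1 was highest under every construct, and within each replicate gag-pol and NC were below gag. Gag-pol was below gag by a log2 fold change of -0.84 ± 0.18 (adjusted p = 0.01), lost without gag-pol replicate 3 or gag replicate 1 (adjusted p from 0.0714 to 0.0887). NC was below gag by a log2 fold change of -0.63 ± 0.18 (adjusted p = 0.0223), lost without gag replicate 1 or 2 or NC replicate 1, 2 or 3 (adjusted p from 0.0533 to 0.102). Against control the value with gag-pol was -0.53 (adjusted p = 0.0643).

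*SFRP2* had 43.5, 78.4 and 46.3 normalized counts with gag and 84.1, 114 and 92.5 in control, which did not overlap. In gag-pol libraries it had 67.5, 111 and 125, and with NC 61.5, 111 and 143. NC exceeded gag by 0.88 ± 0.27 (adjusted p = 0.0307), lost without gag replicate 1 or 3 or NC replicate 3 (adjusted p from 0.0843 to 0.19). Gag-pol exceeded gag by a similar 0.84 ± 0.27, which did not pass in edgeR with all libraries (adjusted p = 0.0654). It passed in DESeq2 (adjusted p = 0.0419), with no filter on low counts (adjusted p = 0.0449) and with the compared groups alone (adjusted p = 0.0423). Gag against control was at -0.81 ± 0.27 (adjusted p = 0.163) and did not pass.

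*DKK1*, an antagonist that blocks LRP5 and LRP6, was at low counts and lowest with NC. It had 49.8, 51.5 and 60.2 normalized counts in control and 44.1, 21.4 and 19.8 with NC. In gag libraries it had 67.7, 32.3 and 126, and with gag-pol 62.4, 26.3 and 59.3. Gag replicate 3 was highest of all libraries, and gag replicate 2 lay within the NC range. NC was below gag by a log2 fold change of -1.30 ± 0.40 (adjusted p = 0.028), lost without gag replicate 1 or 3 or NC replicate 3 (adjusted p from 0.062 to 0.237). *PRKG1-AS1* covers 10.22% of its exons on the opposite strand. *DKK2* and *DKK3* passed in no construct comparison.

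Inside the cell, *NKD2* and *AXIN1*, both inhibitors of the pathway, rose with gag-pol. *NKD2*, which binds Dishevelled, had 1971, 2576 and 2452 normalized counts in control and 2655, 3081 and 3267 with gag-pol, which did not overlap. The gag libraries held 2377, 3075 and 2770, and with NC 2554, 2748 and 2833. The fitted log2 change with gag-pol was 0.37 ± 0.08 (adjusted p = 0.00514), and the call held without each library in turn but was lost without replicate number 1 (adjusted p = 0.098). *AXIN1*, the scaffold of the complex that marks β-catenin, had 4960, 5795 and 5874 in control and 6379, 6204 and 6975 with gag-pol, which did not overlap. Its values were 5649, 6408 and 6676 with gag and 5104, 5706 and 5766 with NC. On the log2 scale the change with gag-pol was 0.24 ± 0.07 (adjusted p = 0.0348), lost without control replicate 1, 2 or 3 or gag-pol replicate 1 or 3 (adjusted p from 0.0612 to 0.206).

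*AXIN2*, the related scaffold that is itself a classic target of β-catenin, was lowest with NC. It had 1533, 1428 and 1360 normalized counts with gag-pol and 977, 1026 and 1061 with NC. Gag libraries had 1200, 1271 and 1566, and in control 936, 1130 and 1556. The NC libraries lay below all gag-pol and gag libraries, while control replicates 1 and 3 were the lowest and next to the highest of the 12. NC was below gag by a log2 fold change of -0.39 ± 0.12 (adjusted p = 0.0297), lost without gag replicate 1, 2 or 3 or NC replicate 1 or 3 (adjusted p from 0.0724 to 0.136). NC was at -0.50 ± 0.12 against gag-pol (adjusted p = 0.099) and gag-pol at 0.28 against control (adjusted p = 0.129). Neither passed in edgeR with all libraries and the filter on low counts. NC against gag-pol passed as a fall in DESeq2 (adjusted p = 0.0233). In edgeR it passed with no filter on low counts (adjusted p = 0.00346) and with the compared groups alone (adjusted p = 0.021). Gag-pol passed as a rise against control without control replicate 3, at 0.45 (adjusted p = 0.03), without gag-pol replicate 3, at 0.44 (adjusted p = 0.0317), and without replicate number 3, at 0.51 (adjusted p = 0.0134). A gene on the same strand shares 25.32% of its exons, so its reads are uncertain. *CTNNB1* passed in no construct comparison with all libraries, passed for NC against gag without replicate number 3 (0.23, adjusted p = 0.0247), and was at -0.19 with gag-pol (95% interval -0.34 to -0.04). The 3 Dishevelled genes did not pass in edgeR with all libraries. *DVL2* passed as a fall in DESeq2 with gag-pol (adjusted p = 0.0465) and with NC (adjusted p = 0.0317), and in edgeR with NC when every library had at least 10 counts (adjusted p = 0.0443) or without NC replicate 2 (adjusted p = 0.0419). *DVL1* was at -0.0091 with gag-pol (95% interval -0.16 to 0.14).

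Of the DNA-binding factors, *TCF7* passed as a rise with gag-pol and NC and *LEF1* with gag-pol. *TCF7* (chromosome 5, 134114681 to 134151865, forward strand) had 1247, 1336 and 830 normalized counts in control and 1680, 1777 and 1455 with gag-pol, which did not overlap. In gag libraries it had 1383, 1383 and 1087, and with NC 1427, 1593 and 1340. Gag-pol was highest and control lowest in every replicate. On the log2 scale the change was 0.54 ± 0.10 with gag-pol (adjusted p = 0.00142), which held in all 15 leave-out fits. With NC it was 0.37 ± 0.10 (adjusted p = 0.0171), lost without control replicate 3 or NC replicate 3 (adjusted p from 0.107 to 0.158). Gag-pol exceeded gag by 0.35 ± 0.10 (adjusted p = 0.0294), lost without gag-pol replicate 1 or 3 or gag replicate 1, 2 or 3 (adjusted p from 0.0704 to 0.168).

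*LEF1* had 1531, 1832 and 1199 normalized counts in control and 1968, 1986 and 1664 with gag-pol. The gag libraries held 1430, 1655 and 1367, and with NC 1620, 1965 and 1632. Gag-pol was highest in each replicate, and control replicate 3 was the lowest library. For gag-pol the log2 fold change was 0.31 ± 0.09 against control (adjusted p = 0.0276), lost without control replicate 3 or gag-pol replicate 1 or 3 (adjusted p from 0.0776 to 0.193). Against gag it was 0.34 ± 0.09 (adjusted p = 0.0283), lost without gag-pol replicate 1 or 3 or gag replicate 1, 2 or 3 (adjusted p from 0.0574 to 0.158). With NC against control it was 0.20 (95% interval 0.02 to 0.39, adjusted p = 0.146). NC differed from gag-pol by -0.11 (95% interval -0.30 to 0.08), which did not pass. *LEF1-AS1* covers 5.20% of its exons on the opposite strand. *TCF7L1* and *TCF7L2* passed in no construct comparison, with values of 0.07 (95% interval -0.14 to 0.29) and 0.14 (95% interval -0.03 to 0.30) with gag-pol.

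Set against gag, which lacks the pol part, 8 Wnt genes were higher with gag-pol (3.03% of all genes) and *SFRP4* was lower (3.42% of all genes). With NC 6 were higher than with gag (8.76% of all genes) and *SFRP4*, *DKK1* and *AXIN2* were lower (8.12% of all genes). The median log2 difference from gag was 0.13 for the Wnt genes with gag-pol and 0.06 with NC, against -0.01 for all tested genes in both. The gag-pol count dropped to 4 without gag-pol replicate 1, to 1 without gag-pol replicate 3, to 0 without gag replicate 1 and to 4 without gag replicate 2 or 3. The NC count dropped to 2, 5, 4 and 3 without gag replicate 1, gag replicate 3, NC replicate 1 and NC replicate 3. These drops are likewise given without the share of all genes called in the same fits.

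Between NC and gag-pol edgeR called 0 Wnt genes (0.0873% of all genes, either direction), and 6 had an unadjusted p under 0.05 (9.92% of all genes). In the same comparison *PEG10* itself, at a log2 fold change of -3.85, had an adjusted p of 0.0604. The NC insert is much shorter than that of gag-pol and counts were not corrected for this, so the value does not compare transcript numbers. DESeq2 called *FZD8*, at -0.38 (adjusted p = 0.0143), and *AXIN2*, at -0.50 (adjusted p = 0.0233), both lower with NC. In edgeR's test *FZD8* and *AXIN2* passed without gag-pol replicate 3, at -0.43 and -0.65 (adjusted p = 0.0256 and 0.00281), and *AXIN2* also passed without control replicate 1, at -0.51 (adjusted p = 0.0376), or control replicate 3, at -0.50 (adjusted p = 0.0267). For *WNT3A* NC differed from gag-pol by -0.16 (95% interval -0.45 to 0.14), for *WNT7B* by -0.06 (95% interval -0.38 to 0.25) and for *SFRP5* by 0.06 (95% interval -0.37 to 0.48).

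The mean of gag-pol and NC was also set against the mean of gag and control. This pairing was chosen with earlier results of these data known, so its values are a description. With it 14 Wnt genes were called higher (13.1% of all genes) and *SFRP4* and *DKK1* lower (11.6% of all genes), at a median log2 difference of 0.10 against -0.0067 for all genes. *SFRP5* differed by 0.95 ± 0.15, *WNT4* by 0.75 ± 0.13, *WNT3A* by 0.66 ± 0.10 and *SFRP4* by -0.58 ± 0.13. *LGR5*, an R-spondin receptor, and *FZD1*, a Frizzled receptor, were called here and in no comparison of single constructs in edgeR with all libraries. *FZD1* was called with gag-pol against control by DESeq2 (0.32, adjusted p = 0.0426), with no filter on low counts (0.33, adjusted p = 0.0296) and without NC replicate 1, 2 or 3 (adjusted p from 0.0335 to 0.045). *LGR5* had 1432, 1516 and 1204 normalized counts in control and 1354, 1639 and 1286 with gag. The gag-pol libraries held 1540, 1503 and 1688, and with NC 1575, 1788 and 1641. Its difference was 0.21 ± 0.07, and its call was lost without control replicate 3, gag-pol replicate 3, gag replicate 1 or 3 or NC replicate 3 (adjusted p from 0.0534 to 0.115). *FZD1* differed by 0.21 ± 0.08, and *DKK1* by -0.76 ± 0.28. The *FZD1* call was lost without control replicate 2 or 3, gag-pol replicate 1, 2 or 3, gag replicate 2 or 3 or NC replicate 2 or 3 (adjusted p from 0.0628 to 0.135). The *DKK1* call was lost without control replicate 2 or 3, gag-pol replicate 1, 2 or 3, gag replicate 1 or 3 or NC replicate 3 (adjusted p from 0.0548 to 0.219).

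Leaving out 1 library also brought calls that were not made with all 12. Only a part of them is given here and in the paragraphs above, and those here are named after their values were seen. Without control replicate 1, gag-pol against control passed for *SFRP1* (0.45, adjusted p = 0.0361) and *SFRP4* (-0.68, adjusted p = 0.0467). *LRP5* passed with NC against control without gag-pol replicate 3 (0.22, adjusted p = 0.0403). Gag-pol exceeded gag for *WNT7B* without gag-pol replicate 2 (0.62, adjusted p = 0.0227). Without control replicate 3, NC against gag passed for *WNT3A* (0.38, adjusted p = 0.0411), *LEF1* (0.23, adjusted p = 0.0486) and *FZD6*, a Frizzled receptor (-0.31, adjusted p = 0.0381). With gag-pol and NC set together against gag and control, *RSPO2* passed without control replicate 1 (0.93, adjusted p = 0.0226) or gag-pol replicate 1 (0.89, adjusted p = 0.035), and *WNT7A* without NC replicate 1 (1.37, adjusted p = 0.0461).

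Most Wnt genes differed between the replicate numbers. Of the 58 tested, 35 did so at an adjusted p under 0.05 in edgeR, tested with construct in the model (60.3%), against 52.8% of all genes. Of these 35, replicate 1 was lowest for 27, and replicate 2 was highest for 20 and replicate 3 for 12. The largest ranges between replicate means on the log2 CPM scale were those of *WNT7A* (1.66), *WNT10A* (1.52) and *SFRP5* (1.44). *WNT7A* and *WNT10A* are ligands at few counts, with means of 18.2 and 15.8 raw counts per library. *WNT7A* had 2.08, 12.4 and 11.8 normalized counts in control and 20.1, 19.5 and 44.7 with gag-pol. With NC it had 2.05, 12.1 and 57.3, where replicate 3 was far above the others. At the median over the Wnt genes, 42.2% of the spread of log2 CPM went with the replicate number and 32.6% with the construct, against 42.3% and 27.9% over all tested genes. *LRP6* had 93.0% for the replicate number and 0.529% for the construct. *WNT10B* had 3.96% and 70.2%.

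**Figure D4:**
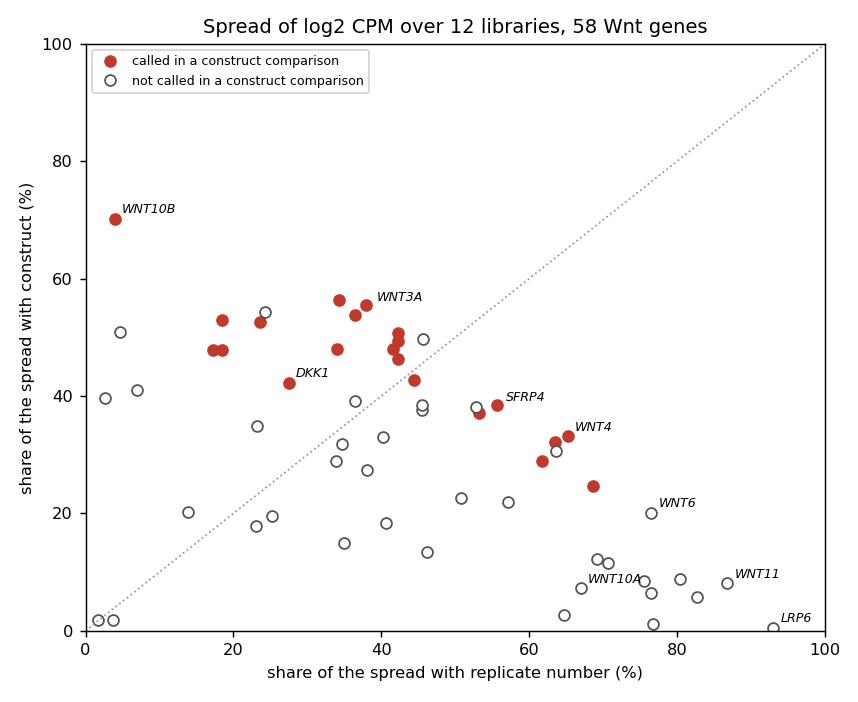
Share of the spread of log2 CPM over the 12 libraries that goes with the replicate number (horizontal, %) and with the construct (vertical, %) for the 58 tested Wnt genes; filled dots were called in a construct comparison and the dotted line marks equal shares. *LRP6* (93.0% and 0.529%) and *WNT10B* (3.96% and 70.2%) are at the corners.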

How the data were processed

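Poly(A) RNA of 12 HEK293 libraries was analysed from the raw read counts per gene that the authors deposited. Per the labels and processing notes, reads were mapped to GRCh38.p13 with STAR 2.7.3, handled with SAMtools 1.8 and counted with featureCounts. The annotation release and strand setting are not given in the sources used here, so overlapping genes are uncertain. Transfection conditions are those of the study's methods. Libraries were grouped by the construct and replicate number in their titles. The methods name the plasmid backbone as the control of a further analysis, and the labels, which name LifeAct-Dendra2, were followed.

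Counts were filtered (minimum count 10, minimum total 15), scaled by TMM and tested with edgeR 4.0.16 (quasi-likelihood, robust) and limma 3.58.1 in R 4.3.3, in 1 fit to all 12 libraries whose terms were construct and replicate number. p-values were adjusted by Benjamini-Hochberg over 17176 genes, with a threshold of 0.05. "Called" means past that threshold. Normalized counts are counts per TMM-scaled library size times the mean total of 37579187. Log2 CPM used a prior count of 2. The design text names separate passages, and the number was taken as the passage. After removal of construct means, 18 pairs of libraries with the same number correlated at 0.138 to 0.539 and 36 pairs with different numbers at -0.498 to 0.072. Totals of 30625725 to 45316749 counts set the precision.

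Named genes are members called in any construct comparison, the 3 with the largest range among those called between replicate numbers, the highest member of each family per exon length, members not tested, *PEG10*, and, of other pathway genes, at most the 3 largest called rises and 3 largest called falls per comparison with control. Other genes are named as intervals or counts required. Members and lists were chosen with earlier results of these data known. Alternatives were DESeq2 1.42.0, RLE factors, *PEG10* left out, other filters, no replicate number, the compared groups alone, and each library or replicate number left out. Exon lengths and positions are from GENCODE release 44 on GRCh38, and promoter sequences from RefSeq (GRCh38.p14). Tables were read with pandas 2.3.3 in Python 3.11.15 and figures drawn with matplotlib 3.10.9.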

Additional observations from a re-analysis of the deposited data

How the results depend on the processing

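The fit without a replicate block called 0 Wnt genes for gag-pol against control, NC against control, gag-pol against gag, NC against gag and the paired contrast of gag-pol and NC with gag and control. Between NC and gag-pol, where edgeR called 0, DESeq2 called 2 genes, the fit with no filter on low counts 2, and the fit of the compared groups alone 1, all lower with NC. When libraries or replicate numbers were left out in turn, the number of Wnt genes called ran from 4 to 14 for gag-pol against control, from 3 to 9 for NC against control, from 0 to 1 for gag against control, from 0 to 10 for gag-pol against gag, from 1 to 12 for NC against gag, from 0 to 2 for NC against gag-pol, from 9 to 16 for the paired contrast and from 10 to 34 between replicate numbers. Without replicate 1 the counts were 4 for gag-pol against control, 4 for NC against control, 0 for gag-pol against gag, 1 for NC against gag and 10 between replicate numbers, in fits that hold fewer samples. Single libraries gave the 3 for NC against control (without control replicate 3 or NC replicate 3) and also a 0 for gag-pol against gag (without gag replicate 1). For these leave-out fits, and for the alternatives between NC and gag-pol, the share of all genes called is not set beside the counts. A change particular to the Wnt genes therefore cannot be read from these counts. No called fold change of a Wnt gene turned its direction under any alternative run. Of the 52 calls in construct comparisons, DESeq2 kept all 52, RLE factors 50, the fit without *PEG10* 50, the filter of at least 10 counts in every library 50, and no filter 51. Fitting the compared groups alone, possible for 36 of the calls, kept 30. It lost *AXIN1* (adjusted p = 0.122), *LEF1* (0.0762) and *LRP5* (0.145) with gag-pol against control, and *DKK1* (0.0711), *SFRP2* (0.0836) and *WNT5A* (0.0563) for NC against gag. *LRP5* with gag-pol was also lost with RLE factors, without *PEG10* and with both other filters (adjusted p from 0.0506 to 0.055). The number of libraries and the low counts of *WNT7A*, *WNT10A*, *DKK1* and the R-spondins limit what could be detected. p-values of the construct comparisons measure the spread that remains between libraries once construct and replicate number are fitted. That fit has 6 residual degrees of freedom. The quasi-likelihood test also draws on the spread of the other genes, so its p-values do not rest on these 6 alone.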

Other observations

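Other genes of the Wnt pathway, 79 in 7 lists, moved in both directions. Of the 75 that were tested, 9 rose and 5 fell with gag-pol, 5 rose and 6 fell with NC, and 1 rose with gag, by the quasi-likelihood test of edgeR with p-values adjusted by Benjamini-Hochberg. Of all tested genes, 5.48% rose and 5.83% fell with gag-pol, 6.04% rose and 5.15% fell with NC, and 1.08% passed with gag in either direction. In the list of the destruction complex and its regulators, 16 genes, 1 rose and 3 fell with gag-pol, and 0 rose and 3 fell with NC. *APC*, the scaffold that helps mark β-catenin, ranged from 3655 to 8363 normalized counts in control, from 3158 to 5126 with gag-pol and from 3042 to 6482 with NC. The groups overlapped, and each gag-pol and NC replicate was below its control. The change in log2 units was -0.42 ± 0.10 with gag-pol (edgeR adjusted p = 0.00745) and -0.42 ± 0.10 with NC (adjusted p = 0.00962). *APC2*, its relative in the nervous system, was at -0.52 ± 0.11 (adjusted p = 0.00345) and -0.49 ± 0.10 (adjusted p = 0.0058). *AMER1*, which recruits APC to the membrane, rose with gag-pol by 0.51 ± 0.14 (adjusted p = 0.0248).

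Of 15 tested genes reported as targets of β-catenin, 4 rose and 1 fell with gag-pol, 0 rose and 1 fell with NC, and 1 rose with gag. The shares of all genes are those given above, and for gag it was 1.08% in either direction. Their log2 fold changes had a median of 0.35 for gag-pol, 0.14 for NC and 0.11 for gag, beside -0.0014, 0.0040 and 0.0027 for all tested genes. *MYC*, a growth regulator, ranged from 4613 to 12870 normalized counts in control and from 10740 to 16670 with gag-pol, at a log2 fold change of 0.61 ± 0.16 (adjusted p = 0.0339). *FOSL1*, a subunit of the factor AP-1, rose with gag-pol by 0.70 ± 0.17 (adjusted p = 0.00905). *JUN*, another AP-1 subunit, rose with gag, where it ranged from 42320 to 52890 normalized counts against 22730 to 40360 in control, at 0.82 ± 0.15 (adjusted p = 0.0266). *ID2*, an inhibitor of helix-loop-helix factors, fell with gag-pol (-0.33 ± 0.09, adjusted p = 0.0226) and with NC (-0.47 ± 0.09, adjusted p = 0.00342). With NC the largest rises were those of *CTNNBIP1* (0.65 ± 0.13, adjusted p = 0.00506) and *CBY1* (0.37 ± 0.09, adjusted p = 0.0148), both of which encode inhibitors that bind β-catenin, and *DAAM2* (0.46 ± 0.11, adjusted p = 0.0105), a formin that binds Dishevelled. Genes on the opposite strand cover 44.76% of the exons of *CBY1* and 30.08% of those of *DAAM2*, so their reads are uncertain. These comparisons share their control libraries, and the other lists held 0 to 3 calls each against control.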
